A study of Mus musculus with 7 samples.

Results

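Whole skeletal muscle of aged wild-type (WT) mice was compared with that of young WT mice across the whole range of expressed genes, from genes past the test to gene groups in which no single gene passed it. The comparison used the 2 aged WT and the 3 young WT arrays of a series of 7 arrays, and 13364 of the 22180 genes with an array feature of their own were tested. The aged WT mice were 24 months old and the young WT mice 2 to 3 months old, and both were of the C57BL/6 strain. These mice came from commercial breeding colonies of different suppliers. Neither group carried a transgene or received a treatment. The other 2 arrays were of aged MISR mice, also 24 months old, which carry a myofiber transgene for an IκB super-repressor that blocks NF-κB. They entered the estimate of the spread, the signal filter and the choice of 1 feature per gene, and neither of the 2 group means compared. Total RNA of whole muscle was measured on an Affymetrix Mouse Gene 2.0 ST array, and the signals, summarised by RMA (the robust multi-array method), are on the log2 scale, where a difference of 1 is a doubling. The arrays are named here by group and label number as aged WT 2 and 3 and young WT 1, 2 and 3. The sources used here do not give which muscle was taken, the sex of the mice, the colony of each mouse or the hour of harvest.

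Skeletal muscle loses mass, force and regenerative capacity with age. It is built of multinucleated myofibers, which are slow and oxidative or fast and glycolytic according to the myosin and troponin isoforms they express, and between them lie satellite cells (the muscle stem cells), fibro-adipogenic progenitors, vessels, nerve endings and immune cells, all set in a collagen-rich matrix. Whole-muscle RNA sums over all of these, so that fewer cells of a type and less RNA per cell cannot be told apart.

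The arrays read as muscle. All 6 defining myofiber markers were tested, with fast myosin Myh4 and creatine kinase Ckm among the highest signals and slow myosin Myh7 the lowest of the 6, at the 87.8th percentile of mean signal. Most markers of other cell types were present at lower levels. Exceptions were Cdh5 of endothelium (94.4th percentile), Dpt (94.2) and Cd34 (88.2) of fibro-adipogenic progenitors, and Acta2 of smooth muscle, level with Myh7. The defining bone and cartilage markers Bglap, Sp7 and Acan as well as the T cell markers Cd3d and Cd3e were under the signal filter. The filter kept a gene at or above the array median (5.86 to 5.93 over the arrays) in at least 2 of the 7 arrays. Of the 13364 genes, 12427 passed it in all 5 WT arrays, 29 only through both aged WT arrays and 157 only through 2 or 3 young WT arrays, and 158 reached it in fewer than 2 WT arrays. The Y-linked genes Kdm5d, Eif2s3y and Uty read between 8.11 and 9.57 in all 5 WT arrays.

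Most genes differed little between aged WT and young WT muscle. The log2 differences, aged WT minus young WT, had a median of 0.01 and a standard deviation of 0.202. Their quartiles were −0.09 and 0.11, and the 1st and 99th percentiles −0.56 and 0.57. In 11914 genes (89.2%) the 95% confidence interval of the difference lay within 1.5-fold in both directions. Only 129 genes (0.965%) were 1.5-fold or more higher and 121 (0.905%) 1.5-fold or more lower, and at a doubling these counts were 17 and 24. The median standard error was 0.09, so that a difference of 0.2 in a single gene is close to the reach of its unadjusted 95% interval. No gene with a difference smaller than 0.56 in either direction passed the adjusted test given below.

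Small differences ran through the whole range. The aged WT mean was higher in 52.3% of the genes and lower in 47.7%, a share that depended on the scaling (45.2% after a second quantile normalization of the arrays). It also depended on the level. With the genes in 10 bins by mean signal, 34.9% were higher in aged WT muscle in bin 1 (the lowest), 65.6% in bin 8 and 54.2% in bin 10. Both aged WT arrays lay above all 3 young WT arrays in 2939 genes (22.0%) and below them in 2101 genes (15.7%), and such genes are called separated here. These shares are the background for each count of separated genes that follows. At an unadjusted p under 0.05, 1238 genes were higher (9.26%) and 856 lower (6.41%).

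**Figure D1:**
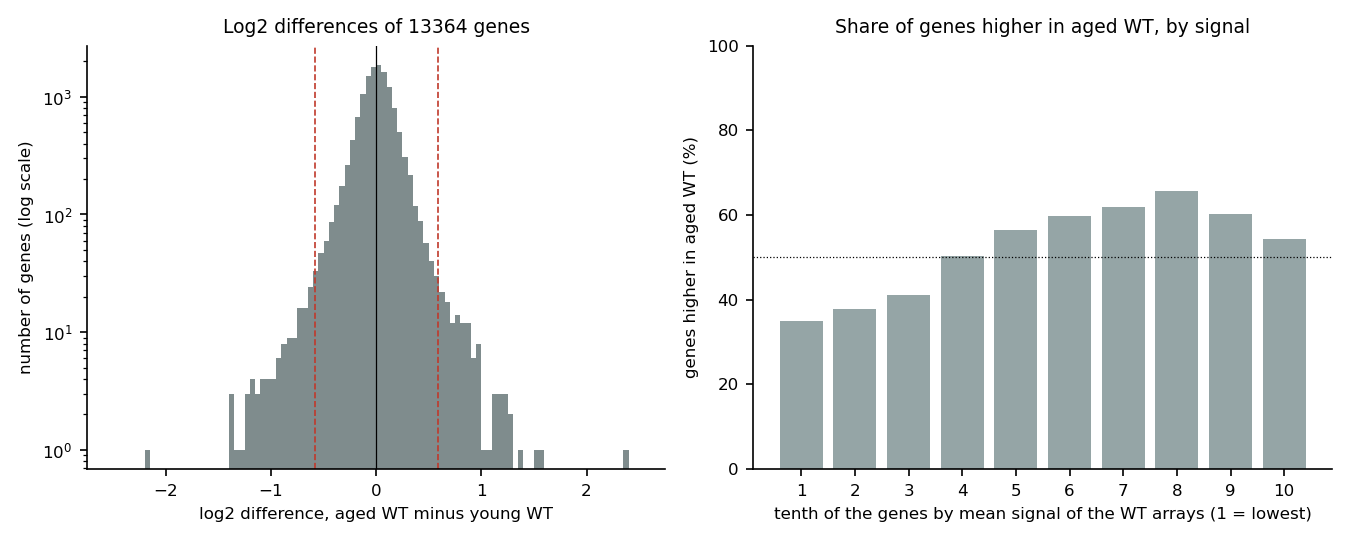
Left, number of genes (log scale) by log2 difference, aged WT minus young WT, with dashed lines at 1.5-fold in each direction. Right, percentage of genes with a higher mean in aged WT muscle, against young WT muscle, in 10 bins of the genes by mean signal of the 5 WT arrays, with a dotted line at 50%. Most genes lie close to 0, and the share of genes higher in aged WT muscle runs between 34.9% in bin 1, the lowest, and 65.6% in bin 8.

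Larger differences were shared by both aged WT arrays more often than small ones. When aged WT 2 was set against young WT 2 and aged WT 3 against young WT 3, comparisons with no array in common and paired here by label number alone, the sign was the same in 55.3% of all genes. It was the same in 69.6% of the 2898 genes with a difference of at least 0.25 in the first pair, in 82.0% of 739 genes at 0.5 and in 93.3% of 105 genes at 1. Aged WT 2 stood farther from young muscle. It was 1.5-fold or more above the young WT mean in 220 genes and below it in 228, against 127 and 124 genes in aged WT 3. Each young WT array differed by that much from the mean of the other two in 10 to 38 genes.

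In aged WT muscle, 13 genes rose (0.0973% of those tested) and 11 fell (0.0823%) at an adjusted p under 0.05 (limma with Benjamini-Hochberg adjustment, 0.18% in both directions). In all 24 the aged WT arrays lay beyond every young WT array, and the 2 aged WT arrays differed from each other by at most 0.30. The largest rise among them was that of Ankrd1, a stretch- and stress-induced protein of the titin complex. Ankrd1 read 9.78 and 9.54 in aged WT muscle, against 8.13, 8.39 and 8.56 in young WT muscle, a log2 difference of 1.30 (SE 0.13, adjusted p = 0.0348). The other members of the list of stretch-sensing sarcomere genes did not pass, with Cavin4 at 0.26, Ankrd23 at 0.16 and Ankrd2, a relative of Ankrd1 in slow fibers, at −0.64.

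Several of the risers are genes of transcription or of the clock. Hoxc6, a homeobox factor of body position, read 8.72 and 8.64 in aged WT and 7.24, 7.53 and 7.75 in young WT muscle. Sall4, a zinc finger factor of stem cells, read 8.13 and 7.98 in aged WT and 7.48, 7.42 and 7.30 in young WT muscle, a difference of 0.65 that was the last to pass (adjusted p = 0.0471). Arntl (Bmal1), the core activator of the circadian clock, read 9.87 and 10.13 in aged WT against 9.16, 9.23 and 9.26 in young WT muscle. No array of one group reached the range of the other in these 3 genes.

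The remaining risers form no single pathway. Tdrkh (0.87), a tudor protein of the piRNA pathway, Hook1 (0.88), a linker of microtubules, Tppp2 (0.77), of a tubulin-binding family, Rnf128 (0.71), an E3 ubiquitin ligase, and Pde7a (0.56), a phosphodiesterase that degrades cyclic AMP, rose together with Bex1 (0.79), Armh4 (1.17), the long noncoding RNA Gm7160 (0.94) and Peg13 (0.68), an imprinted noncoding RNA. Pde7a had the smallest spread of these: 10.08 and 10.06 in aged WT, against 9.48, 9.50 and 9.56 in young WT muscle. The first gene outside the threshold was Mir680-1, at an adjusted p of 0.0508.

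Among the genes that fell, 3 belong to stress and growth signaling. Gadd45g, a stress-induced regulator of MAP kinase signaling, read 8.39 and 8.58 in aged WT and 9.71, 9.79 and 9.44 in young WT muscle. Dusp10, a phosphatase that inactivates p38 and JNK kinases, read 9.58 and 9.85 in aged WT and 10.90, 10.90 and 10.62 in young WT muscle. Ccnd3, a D-type cyclin, read 7.57 and 7.68 in aged WT and 8.20, 8.26 and 8.23 in young WT muscle. All 3 were lower in both aged WT arrays than in any young WT array.

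Terc, the RNA template of telomerase, read 8.24 and 8.38 in aged WT against 9.54, 9.61 and 9.39 in young WT muscle (difference −1.20, SE 0.12, adjusted p = 0.0348). The other 12 telomere genes measured did not pass. Of these, 11 were higher in aged WT muscle, among them Terf1 (0.26), a binding protein of telomeric DNA, and Dkc1 (0.19), the dyskerin subunit of telomerase. Mettl21c, a muscle protein lysine methyltransferase, read 9.12 and 9.20 in aged WT and 10.31, 10.45 and 10.12 in young WT muscle, and its relative Mettl21e differed by −0.73 (adjusted p = 0.105).

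Of the other genes that fell, 3 act at the cell surface. Prima1 (−0.85) anchors acetylcholinesterase at the synapse, Cd59a (−0.83) blocks the membrane attack complex of complement, and Ramp1 (−0.67) is a subunit of the receptor for calcitonin gene-related peptide. Nt5dc2 fell by 0.92, and the long noncoding RNAs E230001N04Rik and 1700030N03Rik by 0.95 and 0.85. E230001N04Rik read 5.50 and 5.54 in aged WT muscle, under the array median, so it passed the signal filter without an aged WT array. Prima1 was under the array median in aged WT 2 (5.73). None of the 24 calls was made when any 1 young WT array or aged WT 2 was left out, and without aged WT 3 the 5 genes that passed were all others.

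**Figure D2:**
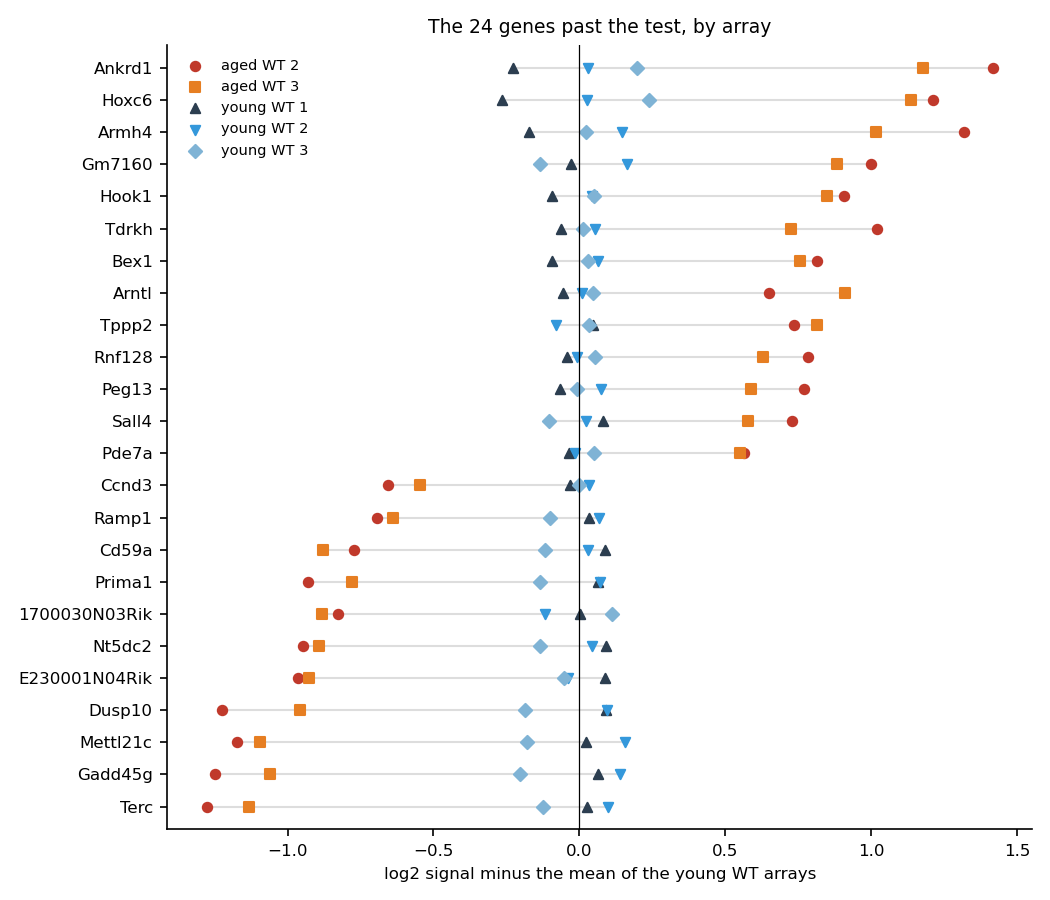
Log2 signal of the 24 genes past the test in each of the 5 WT arrays, relative to the mean of the 3 young WT arrays, one row per gene. Circles and squares are the 2 aged WT arrays, triangles and diamonds the 3 young WT arrays, and in every row both aged WT arrays lie beyond all young WT arrays.

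The largest differences were not the ones that passed. Of the 15 largest positive differences among genes with separated arrays, between 1.11 and 2.39, only 3 passed the test, and of the 15 largest negative ones, between −1.11 and −2.19, again 3. Cxcl13, the chemokine that attracts B cells, had the largest positive difference (2.39), but it read 11.18 in aged WT 2 and 7.75 in aged WT 3, against 6.79, 6.96 and 7.46 in young WT muscle (adjusted p = 0.271). Most of the difference was in 1 array, and without aged WT 2 it was 0.68.

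In Dkk3, Rasd2 and Slc8a1 both aged WT arrays lay well above every young WT array. Dkk3, a secreted protein of the Dickkopf family, read 9.29 and 9.41 in aged WT and 7.55, 7.70 and 8.05 in young WT muscle (adjusted p = 0.230). Its spread in the test includes the aged MISR arrays, and its lowest adjusted p over the alternative settings described below was 0.0314. Rasd2, a small GTPase, read 10.71 and 10.35 in aged WT and 8.65, 8.93 and 9.40 in young WT muscle (adjusted p = 0.0563). Slc8a1, the plasma membrane sodium-calcium exchanger, read 8.68 and 8.34 in aged WT and 7.37, 7.19 and 7.34 in young WT muscle (adjusted p = 0.0569). Ostn (1.24), which encodes the muscle hormone musclin, Cadm1 (1.20), an adhesion molecule, and Amy1 (1.12), an amylase, were also among the 15. Rrad (1.11), a GTPase that restrains calcium channels, rested mostly on aged WT 3: it read 7.87 and 9.27 in aged WT and 7.32, 7.22 and 7.85 in young WT muscle, and differed by 0.41 without aged WT 3. The rest of the 15 included Ctxn3 (1.37), Gm4861 (1.29), Rabggtb (1.18), a subunit of Rab geranylgeranyl transferase, and the U3 small nucleolar RNA Rnu3a (1.15).

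Among the largest negative differences, Csrp3, the muscle LIM protein of the Z-disc, read 8.49 and 8.10 in aged WT and 9.74, 9.80 and 9.53 in young WT muscle (−1.40, adjusted p = 0.0840). Nrep read 9.06 and 9.92 in aged WT and 10.94, 10.97 and 10.67 in young WT muscle (−1.37). Slc16a6 (−1.19), of the monocarboxylate transporter family, Slc15a2 (−1.18), a peptide transporter, and Plekho1 (−1.11) were separated as well, with adjusted p between 0.0517 and 0.0769. The features of Olfr887 (−2.19), Olfr128 (−1.26), Gm3893 (−1.25) and Rnu3a belong to families of near-identical copies and may not measure a single gene, and Mir5123 (−1.34), AF357425 (−1.40) and 2310020H05Rik (−1.15) are noncoding.

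Gene lists showed shifts in which few members passed on their own. In 63 lists of pathways, cell type markers and complexes, the median difference of a list's members ran between −0.59 and 0.39, and the plot of list medians shows each array. The percentages of separated genes given above and the share of 52.3% higher over all genes apply to every count that follows, and a list near them does not stand apart. Lists and members were chosen with earlier results of these data known, so a list far from these shares is a description only. No test of a list as a whole was made.

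**Figure D3:**
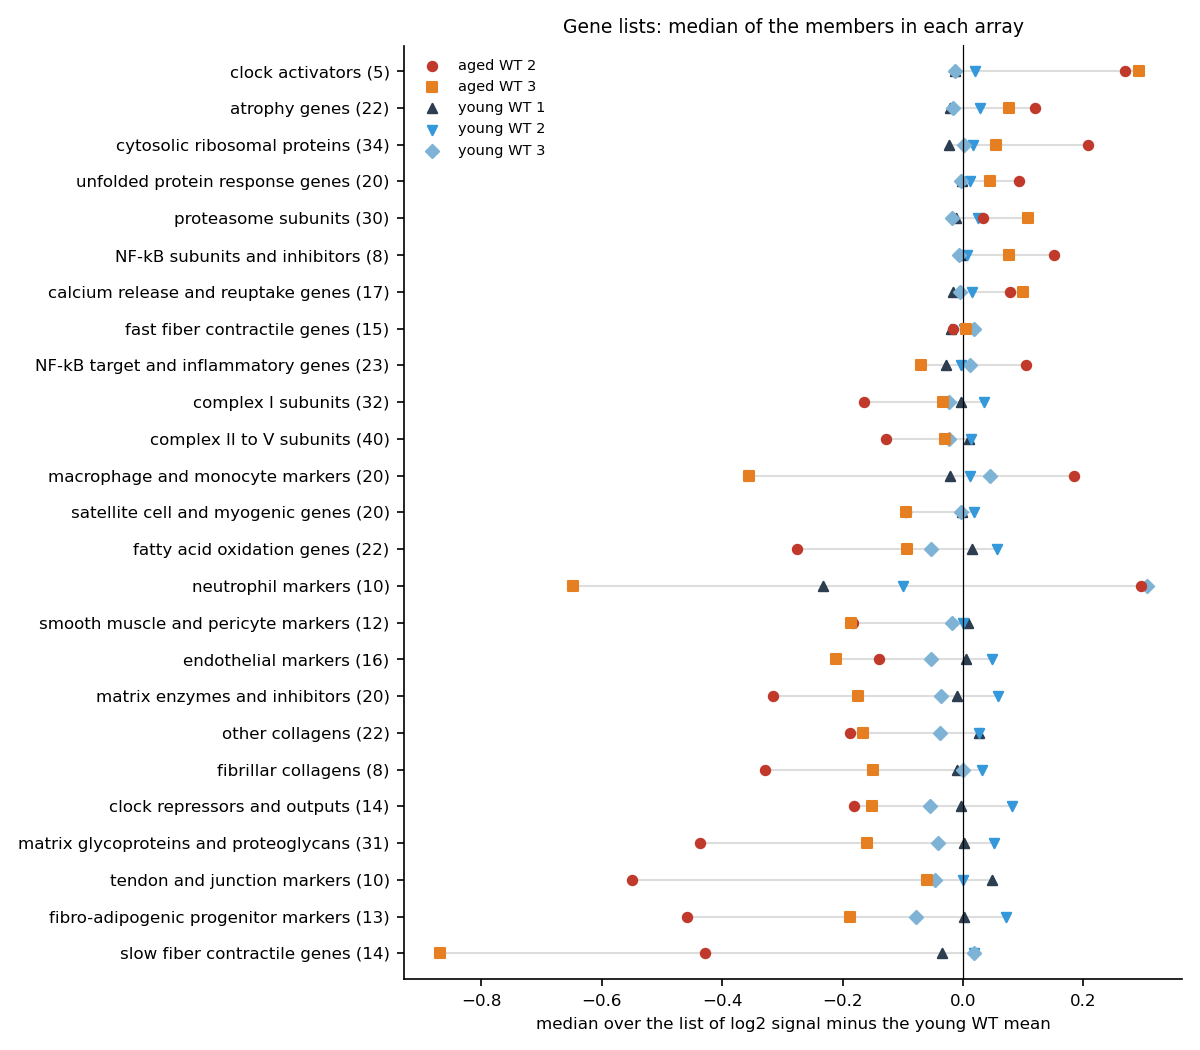
Median over the members of 25 gene lists of the log2 signal relative to the young WT mean, in each of the 5 WT arrays, with the number of genes measured in parentheses. Circles and squares are the aged WT arrays, triangles and diamonds the young WT arrays. Slow fiber genes lie lowest in aged WT 3, at −0.87, and stand at −0.43 in aged WT 2. Macrophage and neutrophil markers have the 2 aged WT arrays on opposite sides of the young WT mean.

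Aged WT muscle had lower signals of slow fiber contractile genes. All 14 slow fiber genes had a lower mean (median −0.59), and in 12 of the 14 both aged WT arrays lay below every young WT array, against 15.7% of all genes. Slow myosin heavy chain Myh7 read 9.74 and 8.75 in aged WT and 10.16, 10.29 and 10.26 in young WT muscle. Slow troponin C, Tnnc1, read 9.12 and 8.49 in aged WT and 9.80, 9.79 and 9.87 in young WT muscle. The slow calcium pump Atp2a2 read 11.10 and 10.85 in aged WT and 11.73, 11.77 and 11.77 in young WT muscle. Aged WT 3 was the lower aged array in each, with a list median of −0.87 against −0.43 in aged WT 2. Muscles differ in their share of slow and fast fibers, and which muscle was taken is not given. The muscle taken and age therefore cannot be told apart in the slow and fast fiber genes. None of the 14 passed the test over all genes, the closest being Csrp3. Over the alternative settings described below, the lowest adjusted p was 0.0314 for Csrp3, 0.0333 for Atp2a2 and 0.0694 for Tnnc1.

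Among the genes of fast fibers the myosins differed from each other. Of 15 fast fiber genes, 6 were higher and 9 lower (median −0.01), a direction that turned after a second quantile normalization (9 higher, median 0.02). Myh2, the heavy chain of fast oxidative fibers, read 11.44 and 11.46 in aged WT and 12.33, 12.26 and 12.24 in young WT muscle. Myh1, of intermediate fast fibers, read 12.53 and 12.58 in aged WT and 12.87, 12.91 and 12.84 in young WT muscle. Myh4, of the fastest fibers, read 13.73 and 13.70 in aged WT and 13.68, 13.71 and 13.75 in young WT muscle. The differences were −0.996 for Myh7, −0.82 for Myh2 and −0.32 for Myh1, and Myh4 overlapped between the ages. None passed (adjusted p = 0.352 for Myh7, 0.191 for Myh2, 0.252 for Myh1 and 0.988 for Myh4). The spread behind each test includes the 2 aged MISR arrays. Over the alternative settings described below, the lowest adjusted p was 0.139 for Myh7, 0.0314 for Myh2, 0.0658 for Myh1 and 0.773 for Myh4.

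**Figure D4:**
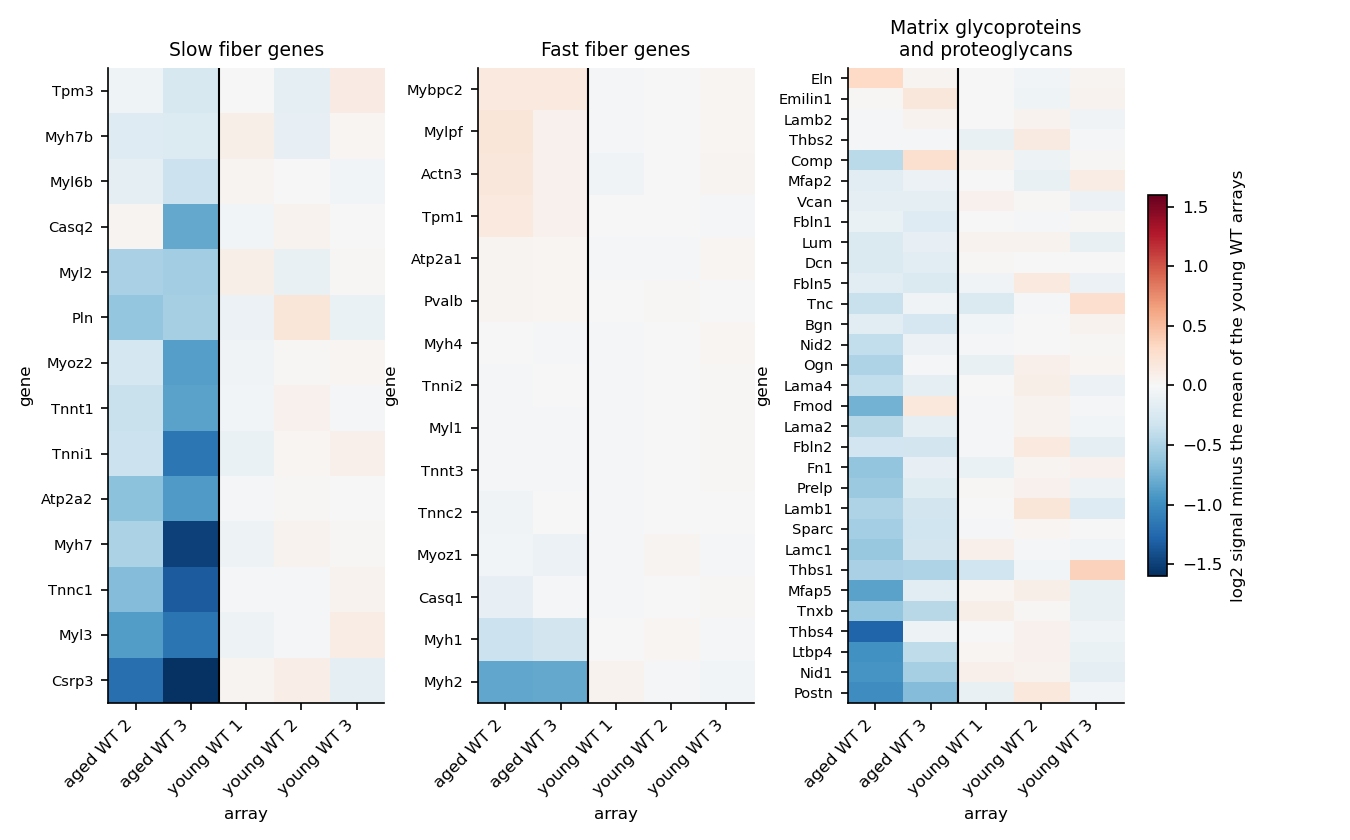
Log2 signal relative to the young WT mean (color scale) of each gene (rows, sorted by difference) in each WT array (columns, aged WT left of the line) for slow fiber genes, fast fiber genes and matrix glycoproteins and proteoglycans. Slow fiber genes are lower in both aged WT arrays and more so in aged WT 3, whereas matrix genes are lower mostly in aged WT 2.

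Calcium handling genes leaned the other way. Of 17 genes of calcium release and reuptake, 14 were higher in aged WT muscle (median 0.06), 9 with both aged WT arrays above young WT muscle and 2 below. Sln, which encodes sarcolipin, an inhibitor of the calcium pump, read 9.72 and 8.57 in aged WT and 7.76, 8.24 and 8.46 in young WT muscle. Cacng1, a subunit of the muscle calcium channel, differed by 0.44 and Orai1, a store-operated calcium channel, by −0.25. Beside Slc8a1, the exchanger Slc8a3 differed by 0.67 (10.21 and 9.82 in aged WT, against 9.21, 9.32 and 9.50 in young WT muscle). None of these passed the test.

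Matrix genes and markers of connective tissue cells were lower in aged WT muscle, mainly in aged WT 2. Of 31 matrix glycoproteins and proteoglycans, 28 were lower (median −0.28), 22 of them with separated arrays. The list medians were −0.44 in aged WT 2 and −0.16 in aged WT 3. Postn, periostin, read 6.33 and 6.63 in aged WT and 7.20, 7.49 and 7.28 in young WT muscle (−0.84, adjusted p = 0.0527, the closest of the list). Nid1, nidogen of the basement membrane, read 8.85 and 9.25 in aged WT and 9.88, 9.85 and 9.64 in young WT muscle. Eln, elastin, was 0.18 higher.

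Most collagen genes were lower too. Of 8 fibrillar collagen genes 6 were lower, with Col1a1 at −0.86, Col1a2 at −0.79 and Col3a1 at −0.75, the chains of the abundant type I and III fibers. Col3a1 read 7.54 and 8.07 in aged WT and 8.64, 8.62 and 8.40 in young WT muscle. Of 22 other collagen genes 18 were lower, among them Col15a1 (−0.70) and the type VI chains Col6a1 (−0.49), Col6a2 (−0.56) and Col6a3 (−0.49). Of 20 matrix enzymes and inhibitors, 17 were lower, such as Pcolce (−0.58), which enhances procollagen processing, and Mmp2 (−0.56), a gelatinase. The exceptions with separated arrays were Lox, the lysyl oxidase that crosslinks collagen, which read 6.95 and 7.16 in aged WT against 6.61, 6.57 and 6.68 in young WT muscle, and Mmp14, a membrane-bound metalloproteinase, which read 7.93 and 7.66 in aged WT against 7.28, 7.53 and 7.45 in young WT muscle. Neither passed (adjusted p = 0.145 and 0.186).

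Markers of the cells that make or line this matrix were mostly lower as well. In fibro-adipogenic progenitor markers 12 of 13 were lower (median −0.31), with Thy1 at −0.81, Dpt at −0.62 and Cd34 at −0.58. In smooth muscle and pericyte markers 11 of 12 were lower (median −0.18), with Pdgfrb at −0.40 and Cspg4 at −0.38. In endothelial markers 12 of 16 were lower (median −0.20). Aplnr, the apelin receptor, read 6.99 and 7.57 in aged WT and 8.26, 8.36 and 8.04 in young WT muscle, whereas the junction gene Cldn5 read 7.23 and 6.83 in aged WT and 6.62, 6.48 and 6.51 in young WT muscle. Tendon markers had medians of −0.55 in aged WT 2 and −0.06 in aged WT 3. How far tissue composition enters the matrix values was not tested.

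The circadian activators Arntl and Npas2 were higher and most clock repressors and outputs lower in aged WT muscle. In this loop the activators Arntl and Clock, or its relative Npas2, bind E-boxes and drive repressors (Per, Cry, Ciart, Nr1d1) and outputs (Dbp, Tef, Hlf). A list of 5 genes held the activators Arntl, Clock, Npas2 and Rora together with Nfil3, itself a repressor that opposes the output factors at D-boxes. All 5 were higher in aged WT muscle (median 0.28, the value of Nfil3) and Arntl passed. Npas2 read 7.19 and 7.17 in aged WT and 6.17, 6.21 and 6.42 in young WT muscle (0.91, adjusted p = 0.0563). Clock differed by 0.21, and Rora by 0.05 with overlapping arrays. Of the 14 repressors and outputs 12 were lower (median −0.25), 9 with separated arrays, and none passed. Their median was −0.15 without aged WT 2.

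Single repressors and outputs showed the same side. Dbp, an output that binds D-boxes, differed by −0.46 with separated arrays. Per3 read 8.02 and 7.96 in aged WT and 8.34, 8.59 and 8.40 in young WT muscle. Ciart, a repressor of the activators, read 7.81 and 7.34 in aged WT and 8.20, 8.25 and 7.85 in young WT muscle. Per1 did not separate: it read 9.98 in aged WT 2 and 8.70 in aged WT 3, against 9.68, 9.76 and 9.58 in young WT muscle. Hlf (−0.34), Wee1 (−0.34), Nr1d1 (−0.28) and Bhlhe41 (−0.23) were lower as well, and Cry1 differed by 0.05. Clock genes vary over the day, and the hour of harvest cannot be told apart from age.

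The sequences through which this loop acts can be read in the promoters of its members. The promoter bases before the start of the 5 genes of that list and of 12 repressors and outputs were found in RefSeq (GRCm38.p6), and 250 bases of each were searched on both strands for the E-box CACGTG, the D-box TTATGTAA or TTACGTAA and the ROR element TAGGTCA or TGGGTCA. An E-box was found in 5 of the 12 (Ciart, Per1, Tef, Cry1 and Bhlhe41) and in none of the 5 genes, a D-box in Per3 and a ROR element in Nfil3 alone. Over all 32851 promoters, 6.02% hold this E-box, 0.932% the D-box and 5.38% the ROR element, and counted by gene 9.80% of the tested genes with a promoter have the E-box in one of theirs. Shown are the stretches of 4 of the genes above, with the matches in capitals.
Ciart, chr3:95882252-95882359, minus strand, 3 E-boxes: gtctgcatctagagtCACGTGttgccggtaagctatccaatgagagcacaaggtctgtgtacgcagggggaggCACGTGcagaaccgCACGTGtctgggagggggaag
Per1, chr11:69098768-69098803, plus strand, 1 E-box: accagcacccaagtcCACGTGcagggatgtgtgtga
Tef, chr15:81802531-81802566, plus strand, 1 E-box: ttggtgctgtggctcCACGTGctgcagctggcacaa
Per3, chr4:151044801-151044885, minus strand, 2 D-boxes: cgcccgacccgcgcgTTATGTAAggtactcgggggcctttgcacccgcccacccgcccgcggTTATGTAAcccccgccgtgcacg
The 5 genes with an E-box differed by −0.52 (Ciart), −0.33 (Per1), −0.23 (Bhlhe41), −0.14 (Tef) and 0.05 (Cry1), and Per3, with the D-box, by −0.45. A match is a run of letters and was not tested as a binding site.

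The Hox genes, homeobox factors that keep a record of body position in adult cells, were mostly higher. Of 23 measured, 17 were higher in aged WT muscle. In cluster C 6 of 8 genes were higher with separated arrays, with Hoxc6 at 1.17 (the call above), Hoxc10 at 0.96, Hoxc8 at 0.88, Hoxc9 at 0.73, Hoxc4 at 0.54 and Hoxc11 at 0.36, and the other 2 lay between −0.05 and −0.04. Hoxc10 read 9.15 and 9.17 in aged WT and 7.96, 8.12 and 8.53 in young WT muscle (adjusted p = 0.0785). Hoxc8 read 8.02 and 8.13 in aged WT and 6.84, 7.17 and 7.59 in young WT muscle. No young WT array reached the aged WT arrays in either gene.

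In cluster A 8 of 9 were higher, 4 of them with separated arrays, by at most 0.31 (Hoxa4), and Hoxa13 was lower (6.74 and 6.47 in aged WT, against 7.66, 7.48 and 7.32 in young WT muscle). In cluster D Hoxd8 read 7.87 and 7.85 in aged WT and 8.43, 8.44 and 8.38 in young WT muscle (−0.55, adjusted p = 0.0732). A difference between the clusters was not tested. Muscles of different body positions differ in Hox expression, and whether the same muscle was taken in both groups is not given, so position and age cannot be told apart here.

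**Figure D5:**
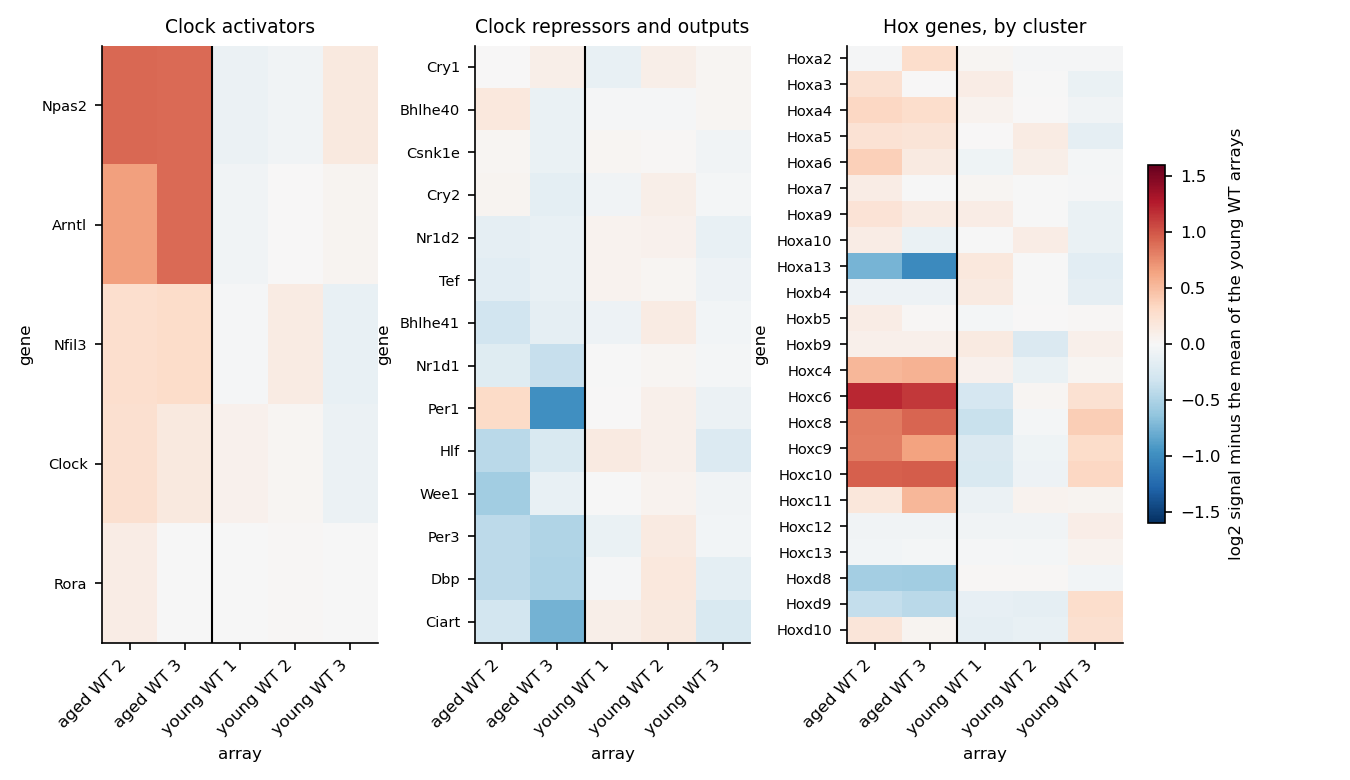
Log2 signal relative to the young WT mean (color scale) of clock activators, clock repressors and outputs, and Hox genes ordered by cluster and position, in each WT array (columns, aged WT left of the line). The activators Npas2 and Arntl and the genes Hoxc4 to Hoxc11 are higher in both aged WT arrays, and 12 of the 14 repressors and outputs have a lower aged WT mean.

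Genes of growth and of cell cycle arrest differed in both directions. Igf1, the main growth factor of muscle, read 7.84 and 8.14 in aged WT and 9.01, 8.96 and 8.67 in young WT muscle (−0.89, adjusted p = 0.0924). Beside Ccnd3, which fell by 0.60, the D-type cyclins Ccnd2 and Ccnd1 differed by −0.56 (adjusted p = 0.0517) and −0.16. The inhibitors of the cell cycle Cdkn1a (p21) and Cdkn2c (p18) were higher: Cdkn1a read 10.52 and 9.85 in aged WT and 9.01, 9.20 and 9.58 in young WT muscle, and Cdkn2c read 8.89 and 8.60 in aged WT and 7.75, 7.85 and 7.92 in young WT muscle. Neither passed (adjusted p = 0.154 and 0.113). Cdkn2a, the p16 locus often used as a marker of senescence, differed by −0.13. Among p53 targets, Eda2r, a receptor of the TNF family, read 8.80 and 9.15 in aged WT and 7.998, 8.16 and 8.32 in young WT muscle. Of 14 p53 target and DNA damage genes 10 were higher, and Gadd45g alone passed, in the other direction.

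In the myostatin, activin and TGF-β list 12 of 27 were higher. The receptor Acvr2a (0.56) and the ligand Tgfb2 (0.51) had separated arrays, and myostatin itself, Mstn, differed by −0.24. Satellite cell and myogenic genes gave 7 higher and 13 lower of 20. The regulators of differentiation Myog, Myf6 and Myod1 differed by 0.44, 0.29 and 0.29, and Calcr, Chodl and Pax7 by −0.46, −0.60 and −0.15. Calcr, the calcitonin receptor, read 5.93 and 5.69 in aged WT and 6.34, 6.20 and 6.26 in young WT muscle, near the array median. None of these passed the test.

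Genes of muscle wasting were higher as a group and by small amounts. Of 22 atrophy genes 21 were higher in aged WT muscle (median 0.15), although a second quantile normalization left 17 and the median was 0.077 without aged WT 2. The ubiquitin ligase Trim63 (MuRF1) read 10.67 and 10.82 in aged WT and 10.15, 10.29 and 10.33 in young WT muscle, and the transcription factor Foxo1 read 9.51 and 9.11 in aged WT and 8.75, 8.89 and 8.74 in young WT muscle. Mt2, a metallothionein, differed by 0.82 and Fbxo32 (atrogin-1), the other atrophy ligase, by 0.19. Of 30 proteasome subunits 29 were higher (median 0.09, with 0.034 in aged WT 2 and 0.11 in aged WT 3) and 18 had separated arrays, against 22.0% of all genes, with Psma7 at 0.42 and Psmc6 at 0.39. Autophagy and lysosome genes gave 17 higher of 24 (median 0.06). In the unfolded protein response 15 of 20 were higher (median 0.09, and 0.045 without aged WT 2), among them the chaperone Hspa5 (0.31), while Chac1, an enzyme that degrades glutathione, differed by −0.87. None passed the test.

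At the synapse the receptor subunits split. Chrnb1, the β subunit of the muscle acetylcholine receptor, read 9.997 and 9.59 in aged WT and 8.98, 9.10 and 9.17 in young WT muscle (0.71, adjusted p = 0.0819). The fetal subunit Chrng differed by −0.51 and Chrnd by −0.38. Runx1 (0.44) and Myog, both induced on denervation, were higher, and Lrp4, the agrin receptor, was 0.31 lower. Of the 19 genes in the list 10 were higher and 9 lower (median 0.00; 7 higher after a second quantile normalization), and Prima1 alone passed.

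NF-κB signaling in aged muscle was a question of the study. NF-κB dimers of Rel family subunits are held in the cytoplasm by inhibitors of the IκB family and turn on both inflammatory genes and genes of their own pathway. Of 8 subunits and inhibitors 7 were higher in aged WT muscle (median 0.08), and 6 after a second quantile normalization. Nfkb2 (p100/p52) read 8.35 and 8.44 in aged WT and 7.57, 7.57 and 7.71 in young WT muscle. Rel read 9.39 and 9.26 in aged WT and 8.75, 8.76 and 8.75 in young WT muscle (0.57, SE 0.08, adjusted p = 0.0557). Over the alternative settings described below, the lowest adjusted p was 0.0314 for Nfkb2, 0.0303 for Rel and 0.103 for Nfkbia. Nfkbia, the inhibitor IκBα and the exception, read 8.55 and 7.97 in aged WT and 9.01, 8.98 and 8.94 in young WT muscle. Nfkbib, the inhibitor IκBβ, differed by 0.33 with separated arrays, and the other 4 overlapped between the ages. Of the 23 targets and inflammatory genes 11 were higher and 12 lower (median −0.03), and this median was 0.10 without aged WT 3. Cxcl9 (−0.55) and Ccl5 (−0.42), chemokines of T cells, were lower, Cxcl10 (0.36) and Pla2g5 (0.74) were higher, and none passed the test.

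The NF-κB consensus, a 10-base motif, was searched on both strands in the 250 bases before the start, where 3.90% of all promoters hold it and 5.42% of tested genes have it. It was found in Nfkb2, Rel and Nfkbia, 3 of the 6 genes of the list with a promoter in RefSeq (GRCm38.p6), and in 7 of 17 targets. Matches are in capitals, and overlapping matches run together.
Nfkb2, chr19:46304683-46304736, plus strand: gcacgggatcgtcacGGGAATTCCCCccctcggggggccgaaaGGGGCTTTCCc
Rel, chr11:23771036-23771076, minus strand: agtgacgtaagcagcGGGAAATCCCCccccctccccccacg
Nfkbia, chr12:55492652-55492691, minus strand: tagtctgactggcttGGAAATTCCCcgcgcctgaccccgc
The 3 genes with these matches did not share a direction, with differences of 0.78, 0.57 and −0.72, and a match was not tested as a binding site.

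Phospholipases A2 and prostanoid genes were led by 3 genes. Phospholipases A2 release arachidonic acid from membranes, from which cyclooxygenases make prostaglandins. Pla2g5, a secreted phospholipase A2, read 8.01 and 7.15 in aged WT and 6.83, 6.79 and 6.90 in young WT muscle (0.74, SE 0.23, adjusted p = 0.212), so that aged WT 2 carried most of it. Pla2g7, which degrades platelet-activating factor, read 10.41 and 10.53 in aged WT and 9.14, 9.36 and 9.73 in young WT muscle (1.06, adjusted p = 0.159). Hpgd, the enzyme that inactivates prostaglandins, read 7.77 and 8.06 in aged WT and 6.89, 7.26 and 7.32 in young WT muscle (0.76, adjusted p = 0.155). The 3 were separated from young WT muscle without passing the test. Of all 24 genes in the list 6 were higher and 18 lower, with Alox12 at −0.50 and Ltc4s, leukotriene C4 synthase, at −0.47, and Ptgs2 (COX-2) and Il6 were under the signal filter.

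Genes of mitochondrial energy metabolism were lower by small amounts. Of 32 complex I subunits 28 were lower, of 40 subunits of complexes II to V 33, of 19 TCA cycle genes 17 and of 22 fatty acid oxidation genes 20, with medians of −0.08, −0.08, −0.10 and −0.13. In medians over these lists aged WT 2 was the lower array, with −0.16 in complex I and −0.28 in fatty acid oxidation, against −0.03 and −0.09 in aged WT 3. Cpt2, which imports fatty acids into mitochondria, read 9.84 and 10.18 in aged WT and 10.41, 10.43 and 10.30 in young WT muscle, and Lpl, lipoprotein lipase, read 11.45 and 11.52 in aged WT and 12.12, 12.12 and 12.04 in young WT muscle. Of the 10 genes of the mitochondrial chromosome 9 were lower, all 9 with separated arrays, by small amounts (median −0.09), with COX1 at −0.11. ND6, encoded on the other strand from most of them, differed by 0.998 (adjusted p = 0.312).

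Of 24 glycolysis and glycogen genes 11 were higher (median 0.00) and 13 after a second quantile normalization, and the largest differences were Ldhb (−0.55), the lactate dehydrogenase of oxidative tissue, and Fbp2 (0.54), the muscle fructose bisphosphatase. Cytosolic ribosomal protein genes were higher in 31 of 34 (median 0.12, with 0.21 in aged WT 2 and 0.054 in aged WT 3), led by Rpl6 (0.55). Of 24 antioxidant enzymes 14 were higher (median 0.03) and 5 had both aged WT arrays above young WT muscle, near the share over all genes. Nqo1, a quinone reductase, read 8.95 and 8.95 in aged WT and 7.84, 7.97 and 8.24 in young WT muscle, Gstm2 differed by 0.82 and Srxn1 by 0.36, while Nfe2l2, their known regulator, differed by −0.17. Of 12 creatine and polyamine genes 7 were lower, with Odc1 at −0.73, Smox at −0.72, mitochondrial creatine kinase Ckmt2 at −0.54 and Gatm at −0.47 (adjusted p = 0.0557). None of them passed.

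The gene Nnt bears on the origin of the mice. It encodes a mitochondrial transhydrogenase that is disrupted by a deletion in the C57BL/6J substrain and intact in others. Nnt read 8.86 and 8.51 in aged WT and 9.82, 9.81 and 9.65 in young WT muscle (−1.08, SE 0.15, adjusted p = 0.0544). Wdfy1 (−0.37) and Ide (0.47), genes also known to vary among mouse lines, had separated arrays too. Which supplier each mouse came from is not given, and substrain and age cannot be told apart in any value of this comparison.

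Immediate early genes and MAP kinase phosphatases included further lower genes beside Dusp10. Dusp6, a phosphatase of ERK, read 7.85 and 7.81 in aged WT and 8.39, 8.50 and 8.26 in young WT muscle (−0.55, adjusted p = 0.0563), and Dusp8 and Dusp1 differed by −0.43 and −0.41. Of 21 immediate early genes 13 were lower (median −0.10) and none had both aged WT arrays above young WT muscle. Zfp36 (−0.56, adjusted p = 0.0732), a protein that destabilizes cytokine mRNAs, and the orphan receptors Nr4a1 (−0.43) and Nr4a3 (−0.70) were lower, whereas Jun (0.06) was level. Of 15 MAP kinase phosphatases 8 were higher and 7 lower (median 0.02), with Dusp26, a phosphatase of nerve and muscle, at 0.85.

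Noncoding RNAs showed class-wide leanings. Of 60 small nucleolar RNA genes, guides of RNA modification, 49 were higher in aged WT muscle (median 0.23), 33 with both aged WT arrays above young WT muscle and 2 below. Snora62 read 8.56 and 8.41 in aged WT and 7.54, 7.82 and 7.83 in young WT muscle, and Snora44 9.71 and 9.62 in aged WT and 8.90, 9.05 and 8.96 in young WT muscle. None of the 60 passed. Such RNAs have near-identical copies and host genes whose signal they may share. At the imprinted Dlk1-Dio3 region of chromosome 12, the long noncoding RNA Rian read 6.05 and 6.01 in aged WT and 7.19, 7.64 and 6.95 in young WT muscle (adjusted p = 0.0628). Some of its neighbors were lower too. They were named with their own values known, so their shared direction says nothing of the region as a whole. AF357425 differed by −1.40, DQ267102 by −0.76, Mir341 by −0.35, Mir679 by −0.29 and Mir673 by −0.23. How the other genes of the region differed is not given here. The list of imprinted growth genes that holds Rian had 5 higher and 8 lower of 13 (median −0.03). Rian was near the array median in aged WT muscle, so its fold may be understated.

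MicroRNA genes leaned lower. Of 133 measured, 38.3% were higher (median −0.07), 14 with both aged WT arrays above young WT muscle and 29 below, and none passed. Genes of low signal leaned lower too, with 34.9%, 37.8% and 41.2% higher in bins 1, 2 and 3 by signal. Whether microRNA genes differ from genes of like signal was not tested. A whole-transcript array does not tell the precursor or host transcript from the mature microRNA, and 110 of the 133 matched the RefSeq table. Shown are 4 of those with the largest differences, by the mature strand they encode, with the seed, bases 2 to 8 that pair with targets, in capitals.
mmu-miR-365-3p (Mir365-2, higher): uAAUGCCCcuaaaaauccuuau
mmu-miR-680 (Mir680-1, higher): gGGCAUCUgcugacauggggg
mmu-miR-7a-5p (Mir7-2, lower): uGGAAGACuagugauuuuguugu
mmu-miR-5123 (Mir5123, lower): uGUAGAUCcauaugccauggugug
No seed is shared among the 4. Mir680-1 read 8.10 and 7.76 in aged WT and 6.87, 6.96 and 7.09 in young WT muscle (0.96), and Mir365-2 read 7.11 and 6.91 in aged WT and 5.79, 6.27 and 6.32 in young WT muscle (0.89, adjusted p = 0.0924). Mir5123 read 9.05 and 7.58 in aged WT and 9.81, 9.73 and 9.44 in young WT muscle. Mir7-2 read 5.12 and 5.25 in aged WT and 6.08, 5.51 and 6.17 in young WT muscle, and both aged WT values were under the array median. The same mature sequence of miR-680 is encoded at 3 loci and those of miR-365-3p and miR-7a-5p at 2 each. Mir133a-1, of the muscle microRNA family 133, read 7.70 in aged WT 2 and 6.54 in aged WT 3, against 6.09, 6.27 and 6.07 in young WT muscle (0.98).

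Other classes by name leaned one way as well. Of 283 zinc finger genes 67.8% were higher (median 0.06) and of 223 solute carriers 35.4% (median −0.03). Among 75 olfactory and vomeronasal receptor genes, whose probes can be shared with near-identical copies, 21 had both aged WT arrays below young WT muscle and 0 above. These too were not compared with genes of like signal. The Y-linked genes Uty (0.43), Eif2s3y (0.39) and Kdm5d (0.24) were higher with separated arrays, and none passed. Of the genes of the X chromosome 61.5% were higher (median 0.05). Medians of this size vary with the scaling, with 0.03 for zinc finger genes and 0.02 for the X chromosome after a second quantile normalization. How far they vary between arrays is not given here.

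Macrophage and neutrophil markers differed between the 2 aged WT arrays. The 20 macrophage and monocyte markers had medians of 0.18 in aged WT 2 and −0.35 in aged WT 3, and the 10 neutrophil markers 0.30 and −0.65, with young WT arrays at −0.23, −0.10 and 0.31. Retnlg, a neutrophil gene, read 7.68 in aged WT 2 and 5.52 in aged WT 3, against 6.33, 6.60 and 6.91 in young WT muscle, so that the young WT arrays lay between the aged ones. Ighm, the IgM heavy chain, read 10.60 in aged WT 2 and 12.03 in aged WT 3, against 12.27, 12.28 and 12.25 in young WT muscle. All 6 erythroid and platelet markers were lower in aged WT muscle (median −0.35), with Ppbp at 10.28 and 9.59 in aged WT and 10.71, 10.85 and 11.47 in young WT muscle. C4b, a complement component, read 7.96 and 6.78 in aged WT and 6.44, 6.71 and 6.73 in young WT muscle. The part of blood and immune cells in the other values was not tested.

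The 2 aged WT arrays differed from each other by a doubling or more in 42 genes, 25 higher in aged WT 2 and 17 higher in aged WT 3. Cxcl13 and Retnlg, with gaps of 3.43 and 2.17, were higher in aged WT 2. Ucp3, the muscle uncoupling protein, read 7.73 in aged WT 2 and 9.28 in aged WT 3, against 8.89, 9.06 and 8.85 in young WT muscle. Of the 250 genes that differed 1.5-fold or more between the ages, 243 had separated arrays, 23 passed the test, and in 63 (25.2%) the 2 aged WT arrays themselves differed by 1.5-fold or more.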

How the data were processed

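Total RNA of whole skeletal muscle was hybridised to Mouse Gene 2.0 ST arrays, and the deposited values are log2 signals that the authors made from the scans by RMA, which corrects background, quantile normalizes and summarises probes. RMA pulls the distributions of the arrays together, so that a shift shared by most genes would not be seen. Of 41345 features, 23521 had exactly 1 gene symbol in the platform annotation, and the feature with the highest mean stood for each of 22180 genes. A gene was kept (13364) if 2 or more of the 7 arrays read it at their median or higher. One model with 3 group means over the 7 arrays was fitted with limma 3.58.1 (lmFit and eBayes) in R 4.3.3, and the contrast was aged WT minus young WT, with Benjamini-Hochberg adjustment over all genes kept and a threshold of 0.05. The fit was tested on simulated data. Arrays have no read depth, and their number limits the precision. The labels number the arrays of a group but do not say how the animals were sampled, so p-values measure the spread between these arrays.

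Named genes were those past the test, the 15 largest rises and falls among genes whose groups did not overlap, and members of the gene lists; 4 noncoding RNAs near Rian were named after their values were seen. The members and lists were chosen with earlier results of these data known. Alternatives covered normalization, signal filters, the feature per gene, the arrays in the fit, a replicate block, the variance prior, array weights, the threshold and a plain t-test. Sequences and motif matches came from RefSeq tables (GRCm38.p6).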

Additional observations from a re-analysis of the deposited data

How the results depend on the processing

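The number of genes past the test depended on the processing more than the direction of the differences did. Against 13 higher and 11 lower genes, there were 18 higher and 18 lower after a second quantile normalization. Median centring gave 33 higher and 16 lower, so that 33 of 49 calls were higher. The filter counted over the 5 WT arrays gave 25 higher and 15 lower, and a filter at the 60th percentile 37 higher and 20 lower. The fit of only the 5 WT arrays called 97 higher and 65 lower, a variance prior with trend and robust estimation 58 and 30, array weights 72 and 46, and an adjusted p under 0.1 98 and 58. Without a signal filter limma called 0 higher and 0 lower, with 2556 genes at an unadjusted p under 0.05. An equal-variance t-test on the 5 WT arrays, which the study's methods name for other measurements and not for the arrays, gave 0 higher and 1 lower after Benjamini-Hochberg adjustment, none of the 24, and 1182 higher and 763 lower without adjustment. With 1 array left out, limma called 0 higher genes each time and 0 to 5 lower, with 1299 to 2262 genes at an unadjusted p under 0.05. Whether same-numbered arrays are linked is not given in the labels. Deviations of same-numbered arrays from their group means correlated at −0.10 and −0.15 across genes. This cannot decide the question, because the deviations of the 2 aged WT arrays mirror each other. A fit with the replicate block called 0 higher and 0 lower, with 1663 genes at an unadjusted p under 0.05. Its median for the list with the clock activators and Nfil3 was 0.26. The cause of these differences was not tested.

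List medians with 1 array left out ran between −0.87 and −0.43 for slow fiber genes and −0.44 and −0.16 for matrix glycoproteins. For the 5 genes listed with the clock activators they ran between 0.22 and 0.35, which is the range of Nfil3 alone. They ran between −0.28 and −0.15 for clock repressors and outputs, 0.077 and 0.17 for atrophy genes, and 0.066 and 0.15 for NF-κB subunits. After a second quantile normalization the list with the clock activators and Nfil3 stood at 0.24 and atrophy genes at 0.12. With the filter at the 60th percentile the 5 NF-κB subunits left stood at 0.33. Single genes turned direction when 1 array was left out: Ucp3 ran between −1.20 and 0.34, Per1 between −0.98 and 0.31, Retnlg between −1.10 and 1.07, Cdkn2a between −0.29 and 0.029, Cry1 between −0.0092 and 0.094, Rora between −0.012 and 0.12 and Myh4 between −0.019 and 0.016. Retnlg was 0.30 under the replicate block and 0.073 under array weights, and Myh4 was 0.037 after a second quantile normalization and 0.00811 under array weights.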
